A study of Mus musculus with 18 samples.

Results

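The genes described here are those of the heat shock proteins, of their J domain partners and of the heat shock factors in sorted mouse T cells. They were taken by symbol alone, as the Hspa, Hspb, Hspd, Hspe, Hsph, Hsp90 and Hsf genes and the Dnaja, Dnajb and Dnajc genes, with pseudogene symbols left out. The rule found 78 genes among the 26665 listed. Of these, 63 reached an FPKM of 1 in 3 libraries or more (FPKM counts fragments per kilobase of transcript, scaled to the mapped fragments of a library) and were tested with the 12265 genes of the whole series that passed the same filter. The other 15 were not tested, and were Dnajb3, Dnajb7, Dnajb8, Dnajc22, Dnajc5b, Dnajc5g, Hsf2bp, Hsf3, Hsf5, Hspa12a, Hspa12b, Hspb2, Hspb3, Hspb7 and Hspb8. Just inside the filter, the third highest library was at 1.05 FPKM for Hspa1l and 1.06 FPKM for Dnajc6. Just outside it, that library was at 0.836 FPKM for Hsf2bp and 0.761 FPKM for Hspa12a.

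RNA was sequenced from 3 kinds of T cells sorted from the spleens of C57BL/6 mice, in 6 groups of 3 libraries. The groups were Nrp1+ regulatory T cells (tTreg), Nrp1-negative regulatory T cells (pTreg) and conventional T cells (Tconv), each from CD28-/-Foxp3EGFP mice (CD28KO) and from Foxp3EGFP mice (WT). All 6 groups therefore carried the EGFP reporter of Foxp3, the transcription factor of regulatory T cells, and the genotypes differed in Cd28, which encodes the costimulatory receptor CD28. No time or treatment was given, the labels leave out the age and number of the mice, and nothing stated that libraries of one group came from separate animals. The p-values therefore measure the spread between these libraries, which may be technical.

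Heat shock proteins of the HSP70 class bind unfolded stretches of other proteins and release them in a cycle driven by ATP. J domain proteins bring clients to HSP70 and start ATP hydrolysis, nucleotide exchange factors of the HSP110 class end the cycle, and HSP90 acts later on clients such as kinases and receptors. Most of these proteins are made at all times, while a few, among them the HSP70 genes Hspa1a and Hspa1b, are switched on by the factor HSF1, which binds repeats of the unit GAA in alternating orientation when unfolded proteins accumulate. Heating, handling and isolation of cells are known to set off this response, and activation of T cells is also known to raise several chaperones.

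The T cell markers Cd3e, Cd4 and Cd5 were present in the 18 libraries and summed to 557 to 1139 FPKM, and Foxp3 lay between 56.0 and 137 FPKM in the 12 regulatory T cell libraries. In Tconv, Foxp3 was at 0.285 FPKM or less in 5 libraries and at 21.1 FPKM in CD28KO Tconv replicate 3, against its label. CD28KO tTreg replicate 3 held the conventional T cell gene Pdlim4 at 8.14 FPKM. The summed FPKM of a library ran from 514726 to 994139, the highest in WT Tconv replicate 1, and 1 entry, Mir5105, took 2.98% to 26.9% of that sum. The summed FPKM of the 78 members took 0.410% to 0.695% of it. Most genes were low in WT pTreg replicate 1, where the median gene lay 0.72 below the mean of the other 2 libraries of its group on the log2(FPKM + 1) scale, and 6 of the 63 members were above that mean. Cd28 transcript was listed at 54.1 to 117 FPKM in CD28KO libraries and at 31.5 to 82.8 FPKM in WT libraries, so this gene's total level does not check the genotype. Read counts were not used here and could not be recovered from the values, so the depth behind each value is unknown. In bulk RNA, fewer cells of a type and less RNA per cell cannot be told apart.

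Promoter sequences are shown for the pair of genes with the largest differences between genotypes. They are also shown for Hspb1, the member with the largest called difference between sorted populations. Hspb1 reached 1 FPKM in tTreg libraries only, so that call is given as a description. Hspa1a (chromosome 17, 34969359 to 34972156) and Hspa1b (chromosome 17, 34956429 to 34959238) are neighbours on the minus strand and encode almost the same inducible HSP70. Hspb1 (chromosome 5, 135887919 to 135889563, plus strand) encodes the small heat shock protein known as HSP25 in mice. Each sequence holds the 250 bases before the transcription start, taken from RefSeq on GRCm38.p6 and written 5′ to 3′ on the gene's strand, with matches to GAANNTTC or TTCNNGAA, a pair of inverted GAA units, in capitals. No exon of GENCODE mouse release M21 lies within these windows.
Hspa1a, chr17:34972157-34972406, minus strand: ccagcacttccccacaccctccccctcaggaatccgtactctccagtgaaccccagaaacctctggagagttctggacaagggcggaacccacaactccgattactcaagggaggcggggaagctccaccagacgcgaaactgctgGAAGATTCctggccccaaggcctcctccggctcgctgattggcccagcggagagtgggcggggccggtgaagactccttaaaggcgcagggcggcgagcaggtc
Hspa1b, chr17:34959239-34959488, minus strand: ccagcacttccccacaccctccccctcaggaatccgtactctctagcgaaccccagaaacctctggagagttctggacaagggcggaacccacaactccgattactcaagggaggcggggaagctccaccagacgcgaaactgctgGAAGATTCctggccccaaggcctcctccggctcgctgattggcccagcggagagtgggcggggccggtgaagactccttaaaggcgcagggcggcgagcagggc
Hspb1, chr5:135887669-135887918, plus strand: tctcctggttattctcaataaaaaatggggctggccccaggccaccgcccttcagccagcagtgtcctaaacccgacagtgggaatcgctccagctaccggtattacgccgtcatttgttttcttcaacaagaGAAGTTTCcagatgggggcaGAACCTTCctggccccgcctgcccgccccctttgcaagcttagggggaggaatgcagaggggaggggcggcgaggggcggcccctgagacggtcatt
The Hspa1a and Hspa1b windows differed at 3 of 250 bases (C44T, T47C and T249G, counted from the first base printed, with the Hspa1a base first), and each held 1 match ending 96 bases before the start. The Hspb1 window held 2 matches, ending 109 and 89 bases before the start. Both motifs are their own reverse complements, so 1 search covers both strands. At least 1 match was in 17 of the 79 windows found for 62 members (21.5%), beside 12.8% of all 32851 RefSeq promoter windows of this length. A run of 3 units (GAANNTTCNNGAA or TTCNNGAANNTTC, each of which contains both shorter motifs) was in windows of the members Hspe1, Hspd1 and Dnajb6, and in 0.466% of all windows. Hspe1 and Hspd1, which encode the mitochondrial chaperonins HSP10 and HSP60, lie head to head and share that match. A match describes letters in a window and shows no binding.

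The highest levels belonged to constitutive chaperones of the cytosol. Hspa8, the constitutive HSP70 of the cytosol, averaged 901 FPKM over the 18 libraries, and Hsp90ab1, the constitutive HSP90, averaged 657 FPKM. Hspa5, the HSP70 of the endoplasmic reticulum (ER), averaged 216 FPKM, Hspe1 averaged 134 FPKM and Hsp90aa1, the inducible HSP90, averaged 118 FPKM. All 9 ER members, all 9 mitochondrial members, all 6 cytosolic HSP70 members, all 3 HSP110 members and both cytosolic HSP90 members were tested, as were 26 of 32 other J proteins, 4 of 8 of the small HSP family, 3 of 6 heat shock factor genes and 1 of 3 other HSP70-like genes. FPKM is scaled by transcript length, so these levels can be set side by side.

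**Figure D1:**
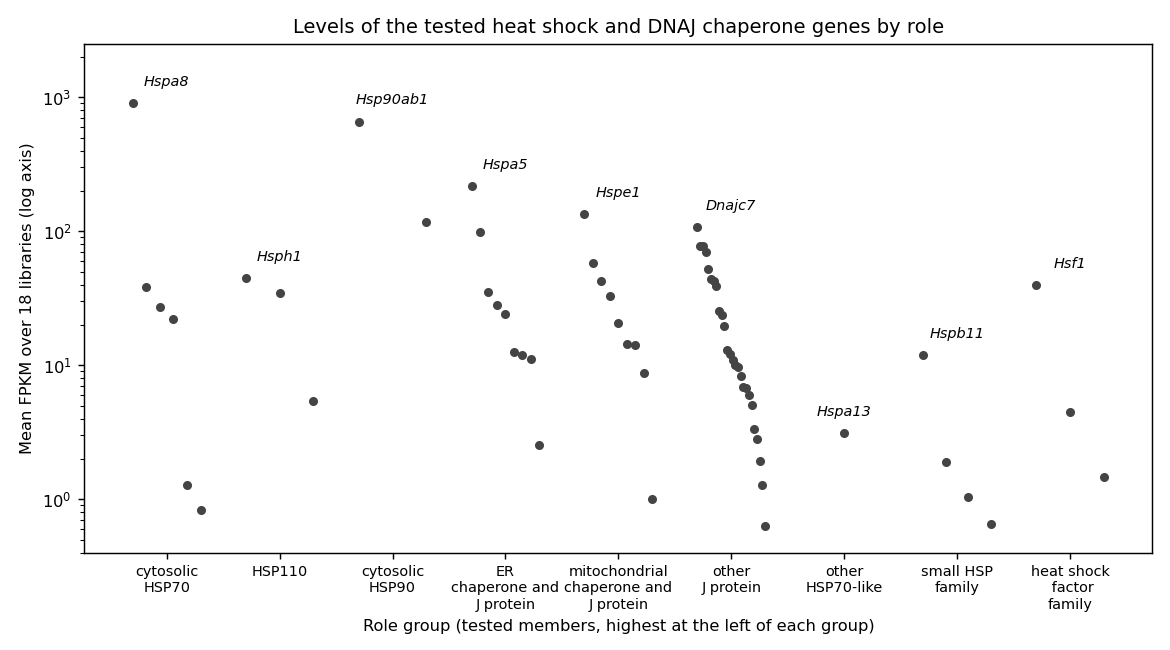
Mean FPKM over 18 libraries (log axis) of the 63 tested members by role group, 1 point for each gene, with the highest gene of each group named. Hspa8 at 901 FPKM and Hsp90ab1 at 657 FPKM stand at the top, and the small HSP family stays at 11.9 FPKM or less.

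Several levels rest on sequence that other transcripts share. Of the 50-base words in the transcripts of Hspa1a in GENCODE M21, 66.3% also occurred in another gene, most of them in Hspa1b, and for Hspa1b the share was 62.3%. For Hspa1l, a testis HSP70 beside them, it was 71.4%, and for Hspb1 it was 50.1%, mainly with the pseudogene Hsp25-ps1. For Dnaja4, a farnesylated partner of HSP70, 42.7% of the words were shared with the overlapping gene Wdr61, and for Hspa8 the share was 39.4%. Among the 63 tested members, 24 shared 5% or more and 4 shared 50% or more. With single reads of 50 nt and no statement of how shared reads or strand were handled, the split of reads between such genes is uncertain.

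The first question was whether chaperone transcripts differed without CD28. No member was called in any of the 3 populations: at an adjusted p under 0.05 in limma, 0 of 63 members passed in tTreg, in pTreg and in Tconv. At an unadjusted p under 0.05, 2 members (3.17%) passed in each of the 3 comparisons, beside 3.82% of all genes in tTreg, 4.44% in pTreg and 9.66% in Tconv. Few genes were called at all, namely 0.204% of the 12265 genes in tTreg, 0.204% in pTreg and 0.791% in Tconv, so 0 of 63 lay near this background. Without WT Tconv replicate 1, a library with high Hspa1a, the members called were again 0 in each population, against 0.236% of genes in tTreg, 0.212% in pTreg and 0.408% in Tconv. A p that misses the threshold does not show that the genotypes are alike.

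The median member lay near the median gene. In tTreg it differed by -0.03 on the log2(FPKM + 1) scale (CD28KO minus WT), beside -0.05 over all genes tested. In pTreg the medians were 0.18 for the members and 0.19 for all genes, and in Tconv they were -0.20 and -0.16. Quantile normalization brought the medians over all genes to 0.00, 0.02 and 0.00 in tTreg, pTreg and Tconv, and the members' medians to 0.05, 0.00 and -0.03. The shift of the whole set thus depended on the scaling.

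The inducible cytosolic HSP70 genes had the largest differences in Tconv and also the largest spread. Hspa1a stood at 12.6, 12.3 and 2.25 FPKM in CD28KO Tconv replicates 1, 2 and 3, against 86.2, 5.48 and 19.0 FPKM in WT Tconv replicates 1, 2 and 3. The groups overlapped, with 1 WT library far above the rest and 1 CD28KO library far below. The difference was -1.42 ± 0.80 (log2 scale, SE, n = 3 libraries each; limma adjusted p = 0.564). Leaving out WT Tconv replicate 1 gave -0.44 ± 0.73 (limma adjusted p = 0.823). That library was singled out for its high Hspa1a, so the smaller difference follows from that choice. Hspa1b stood at 21.8, 23.2 and 4.35 FPKM in CD28KO Tconv against 139, 10.7 and 32.4 FPKM in WT Tconv, a difference of -1.40 ± 0.77 (adjusted p = 0.555 in limma) that became -0.46 ± 0.70 without WT Tconv replicate 1. These are the same high and low libraries as for Hspa1a. Without the 3 libraries that stand apart (WT Tconv 1, WT pTreg 1 and CD28KO Tconv 3), the sign turned, to 0.24 for Hspa1a and 0.25 for Hspa1b. This leaves out the highest WT Tconv value and the lowest CD28KO Tconv value of both genes, so the difference had to rise. In tTreg, Hspa1a averaged 19.6 ± 6.84 FPKM in CD28KO and 19.6 ± 13.7 FPKM in WT (SD, n = 3 each). In pTreg it averaged 23.3 ± 7.01 FPKM in CD28KO and 23.9 ± 14.0 FPKM in WT, so the genotypes overlapped in both subsets.

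The constitutive chaperones differed less. Hspa8 stood at 768, 940 and 720 FPKM in CD28KO Tconv, against 1451, 794 and 1080 FPKM in WT Tconv, and Hsp90ab1 at 557, 697 and 497 FPKM in CD28KO Tconv, against 1064, 543 and 727 FPKM in WT Tconv. Both pairs of groups overlapped through WT replicate 2. The differences were -0.42 ± 0.21 for Hspa8 and -0.37 ± 0.22 for Hsp90ab1, and without WT Tconv replicate 1 they were -0.20 ± 0.19 and -0.12 ± 0.19. Dnajb1, the inducible J protein that works with HSP70, differed by -0.49 ± 0.28 with that library and by -0.15 ± 0.25 without it. Hsph1, the inducible HSP110, differed by -0.06 ± 0.30 and Hsp90aa1 by -0.30 ± 0.24. Hspa4, the constitutive HSP110, differed by -0.17 ± 0.24, and Dnaja1 and Dnaja2, the main constitutive J proteins of the cytosol, by -0.15 ± 0.29 and -0.18 ± 0.22.

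No chaperone of the organelles and no heat shock factor was called either. In Tconv the ER members Hspa5, Hsp90b1 (GRP94), Dnajb9, Dnajb11 and Dnajc3 differed between CD28KO and WT by -0.44 ± 0.22, -0.18 ± 0.19, -0.37 ± 0.42, -0.41 ± 0.16 and -0.16 ± 0.31. With all libraries, only Dnajb11 of these 5 had CD28KO libraries (30.0, 32.6 and 26.9 FPKM) all below WT libraries (48.6, 36.9 and 35.7 FPKM), and it did not pass the test. With WT Tconv replicate 1 left out, the 5 differences were -0.27 ± 0.22, -0.20 ± 0.21, 0.04 ± 0.42, -0.28 ± 0.16 and -0.41 ± 0.33, so that of Dnajb9 changed sign and that of Dnajc3 grew. The mitochondrial members Hspa9 (mortalin), Hspd1, Hspe1 and Dnaja3 differed by -0.09 ± 0.25, -0.11 ± 0.23, -0.35 ± 0.24 and -0.22 ± 0.20, and without that library by -0.24 ± 0.27, -0.12 ± 0.26, -0.04 ± 0.21 and -0.17 ± 0.23. Hsf1, the main stress-activated factor, stood at 36.2, 36.8 and 39.3 FPKM in CD28KO Tconv, against 54.9, 35.0 and 40.1 FPKM in WT Tconv, and differed by -0.18 ± 0.18. Hsf2, a developmental relative, differed by 0.32 ± 0.27, and Hsf4, a factor best known from the lens, by -0.46 ± 0.18 (unadjusted p = 0.0227 and adjusted p = 0.449 in limma). The differences of Hsf2 and Hsf4 were 0.09 ± 0.28 and -0.39 ± 0.20 without WT Tconv replicate 1. Over the 3 populations, the members with the largest differences after Hspa1a and Hspa1b were Hspb11, an intraflagellar transport subunit despite its name, and Dnajb2, a J protein with ubiquitin-interacting motifs. Hspb11 was at 11.1, 7.65 and 6.10 FPKM in CD28KO tTreg, against 11.6, 13.2 and 12.8 FPKM in WT tTreg, with every CD28KO library below every WT library (-0.58 ± 0.22, adjusted p = 0.871 in limma). Dnajb2 was at 14.1, 12.7 and 13.7 FPKM in CD28KO pTreg, against 5.87, 12.6 and 10.2 FPKM in WT pTreg, where the low value is that of the library in which most genes were low (0.51 ± 0.21, adjusted p = 0.770 in limma).

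In tTreg and pTreg the differences of the stress-inducible and constitutive chaperones listed next were smaller than their SE. The SE of Hspa1a and Hspa1b was wide, so their differences remain undetermined. The difference in tTreg was 0.17 ± 0.80 for Hspa1a, 0.20 ± 0.77 for Hspa1b, 0.15 ± 0.30 for Hsph1, 0.02 ± 0.28 for Dnajb1, -0.04 ± 0.24 for Hsp90aa1, -0.04 ± 0.21 for Hspa8 and -0.04 ± 0.22 for Hsp90ab1. In pTreg it was 0.13 ± 0.80 for Hspa1a, 0.16 ± 0.77 for Hspa1b, 0.22 ± 0.30 for Hsph1, 0.14 ± 0.28 for Dnajb1, -0.02 ± 0.24 for Hsp90aa1, 0.07 ± 0.21 for Hspa8 and 0.12 ± 0.22 for Hsp90ab1. The sign of the Hspa1a and Hspa1b values in both subsets turned when single libraries were left out. Hspb1 differed between CD28KO and WT by -0.40 ± 0.18 in tTreg (adjusted p = 1 in limma) and by -0.25 ± 0.18 in pTreg (adjusted p = 0.770), where the libraries did not overlap. Hspa1l differed by 0.27 ± 0.17 in tTreg without overlap, and Hspb9, a testis member of the small HSP family, by 0.34 ± 0.24 with overlap. Among the other members with the largest differences, Hspa2 differed by -0.27 ± 0.21 in tTreg and Dnajc21 by 0.38 ± 0.20 in pTreg. In Tconv, Dnajb4, Dnajc12 and Dnajc16 differed by -0.50 ± 0.31, 0.20 ± 0.16 and 0.10 ± 0.28, and without WT Tconv replicate 1 by -0.26 ± 0.32, 0.25 ± 0.18 and -0.15 ± 0.28. The libraries did not overlap for 8 of 63 members in tTreg (2 higher and 6 lower), beside 17.8% of all genes, for 2 in pTreg (1 higher and 1 lower), beside 6.43%, and for 8 in Tconv (all lower), beside 18.7%. These are 12.7%, 3.17% and 12.7% of the members, below the share of all genes each time, and none of them was called.

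**Figure D2:**
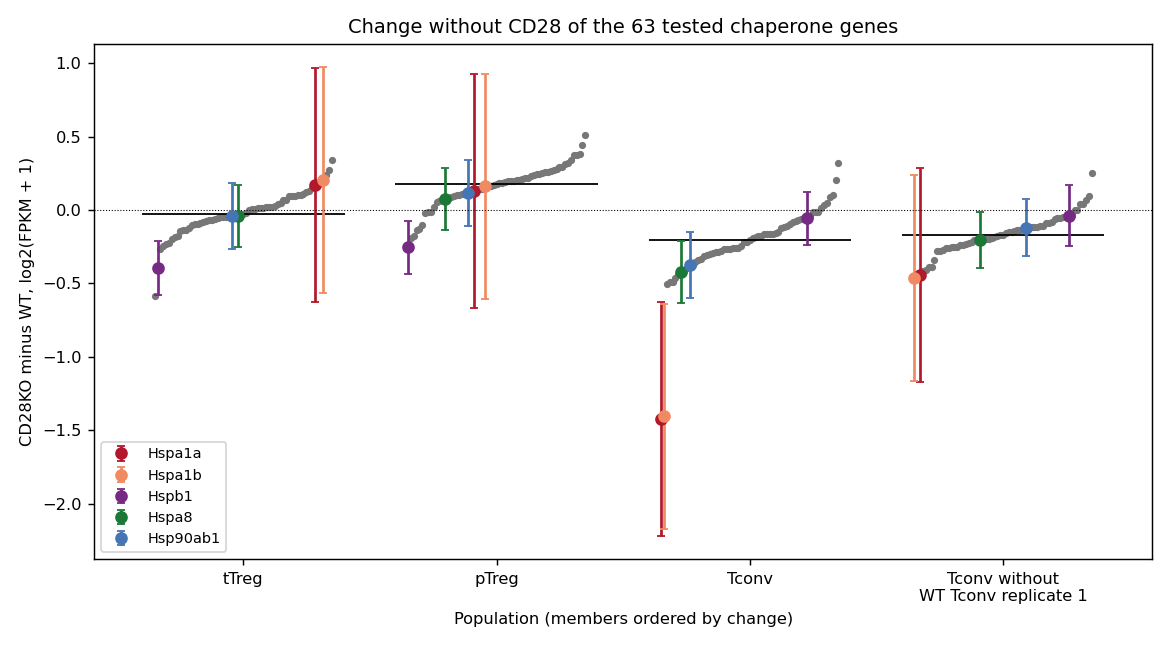
Change without CD28 (CD28KO minus WT, log2(FPKM + 1) scale) of each of the 63 tested members in tTreg, pTreg and Tconv, and in Tconv without WT Tconv replicate 1. Grey points are genes ordered by change, black lines are medians and coloured points are 5 named genes with SE. The low Hspa1a and Hspa1b points in Tconv (-1.42 and -1.40) move to -0.44 and -0.46 without that library. That library was singled out for its high Hspa1a, so the smaller Hspa1a difference follows from that choice.

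Whether CD28 acted differently across populations was tested as the difference of the CD28 effects. No member was called in any of the 3 tests. The share of all genes called was 0.0245% for tTreg minus pTreg, 0.122% for tTreg minus Tconv and 0.0734% for pTreg minus Tconv. With WT Tconv replicate 1 left out it was 0.0245%, 0.0815% and 0.0408%, again with 0 members. The lowest limma adjusted p of any member over these 3 tests was 0.467 with all libraries. At an unadjusted p under 0.05, 1 member (1.59%) passed for tTreg minus pTreg, beside 1.47% of genes, 2 (3.17%) for tTreg minus Tconv, beside 2.18%, and 1 (1.59%) for pTreg minus Tconv, beside 8.75%.

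The largest variation of the inducible HSP70 genes went with the replicate number in the titles. In CD28KO, Hspa1a was at 21.9, 25.0 and 11.9 FPKM in tTreg replicates 1, 2 and 3, at 31.4, 19.9 and 18.7 FPKM in pTreg and at 12.6, 12.3 and 2.25 FPKM in Tconv. Number 3 was the lowest in all 3 CD28KO populations, while the highest was number 2 in tTreg and number 1 in pTreg and Tconv. In WT, Hspa1a was at 34.3, 7.29 and 17.3 FPKM in tTreg, at 36.9, 9.01 and 25.7 FPKM in pTreg and at 86.2, 5.48 and 19.0 FPKM in Tconv. Number 1 was the highest and number 2 the lowest in all 3 WT populations. Hspa1b followed, at 39.8, 45.4 and 21.5 FPKM in CD28KO tTreg and at 59.3, 14.8 and 28.2 FPKM in WT tTreg. Whether a number marks a shared animal, sort or day is not given in the sources used here, and the numbers carry no order of their own.

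A limma F test of the replicate number within each genotype, added after the data were seen, called Hspa1a (adjusted p = 0.00112) and Hspa1b (adjusted p = 0.00129). The number held 66.4% of the sum of squares of Hspa1a within genotypes and 64.0% of that of Hspa1b, while the population held 21.4% and 23.7%. In the same fit, a limma F test of the population within each genotype also called Hspa1a (adjusted p = 0.0399) and Hspa1b (adjusted p = 0.0309). That population test called 12 of 63 members (19.0%), beside 22.2% of all genes. The test of the replicate number called 19 of 63 members (30.2%), against 30.3% of all genes tested. With all libraries the members' share thus lay at the background. Others called included Dnajb4, Dnajb9, Hsph1, Dnaja1, Dnajb1, Hsp90aa1, Dnajc3, Hspa9 and Hsf2. The constitutive Hspa8 (29.6% of its sum of squares), Hsp90ab1 (41.2%) and Hspa5 (40.4%) were not called. Without WT Tconv replicate 1 the limma F test of the number called 26 of 63 members, beside 37.2% of genes, and Hspa1a had an adjusted p of 0.00365. Without the 3 libraries that stand apart it called 21 of 63 members, beside 21% of genes, and Hspa1a had an adjusted p of 0.0177. In both of these runs the members' share was above that of all genes.

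The numbers did not order all stress-inducible members alike. These counts describe the libraries. In WT, number 1 was the highest in all 3 populations for 4 members, Hspa1a, Hspa1b, Dnajb4 (an HSP70 partner of the same class as Dnajb1) and Dnajb9 (the ER J protein ERdj4), which is 6.35% of the members, beside 2.25% of all genes. Dnajb9 was at 45.6, 14.9 and 21.6 FPKM in WT tTreg, at 32.9, 15.3 and 22.0 FPKM in WT pTreg and at 46.1, 16.6 and 22.1 FPKM in WT Tconv. Number 3 was the highest in all 3 WT populations for 13 members, Hsph1, Dnaja1, Hspa4, Hspa9 and Hspd1 among them, which is 20.6% of the members beside 19.8% of all genes. Hsph1 was at 37.8, 37.4 and 55.8 FPKM in WT tTreg, at 24.8, 38.0 and 57.8 FPKM in WT pTreg and at 40.4, 38.2 and 57.4 FPKM in WT Tconv. In CD28KO, number 2 was the highest in all 3 populations for 14 members, among them Hspa8, Hsp90aa1, Hsp90ab1, Hsph1, Dnajb1, Hspd1 and Hspe1, which is 22.2% of the members beside 9.17% of all genes. Hsp90aa1 was at 125, 164 and 99.5 FPKM in CD28KO tTreg, at 93.7, 128 and 96.6 FPKM in CD28KO pTreg and at 98.8, 143 and 75.9 FPKM in CD28KO Tconv.

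**Figure D3:**
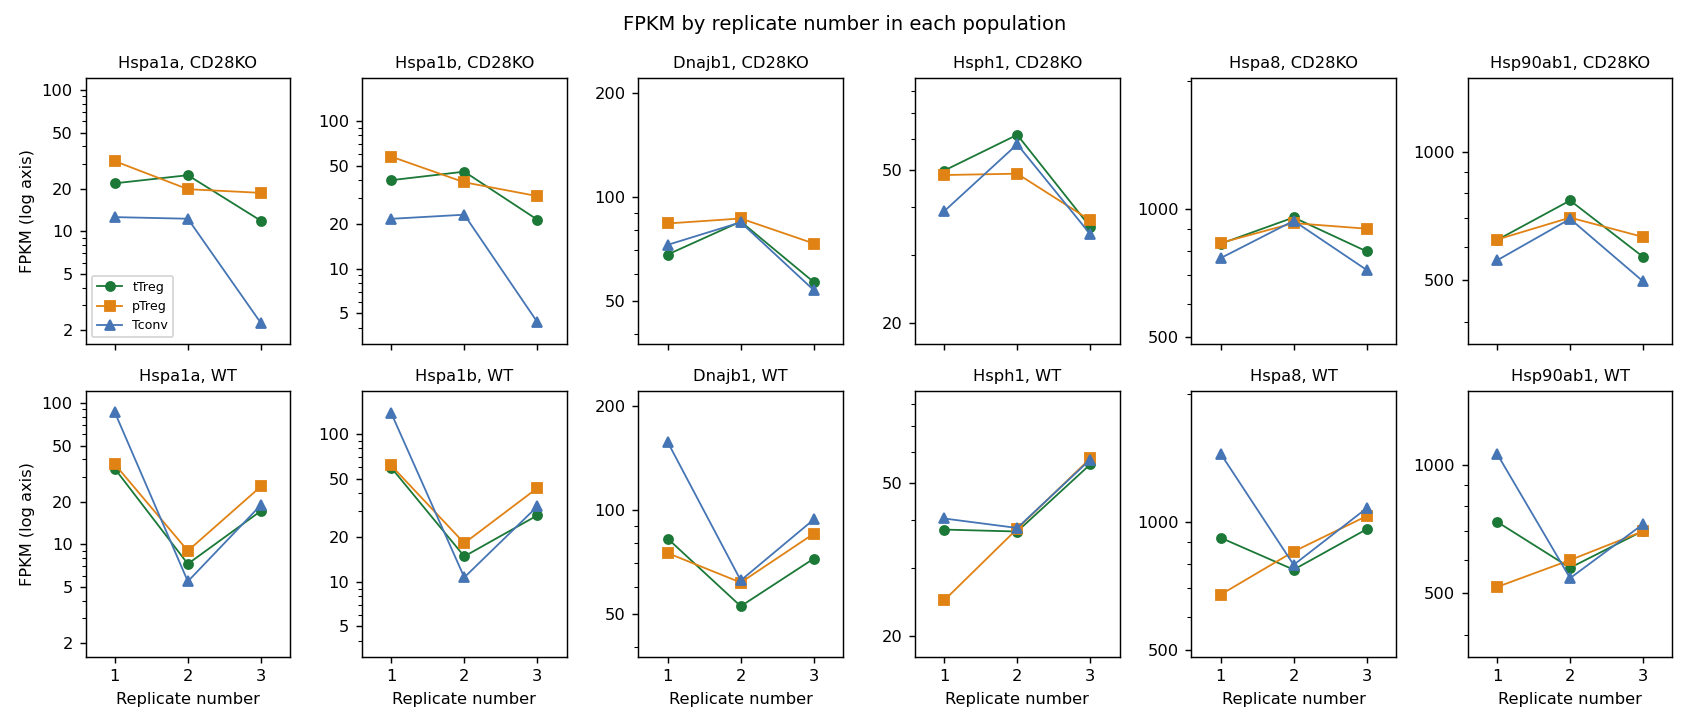
FPKM (log axis) of 6 chaperone genes by replicate number, with CD28KO above and WT below; lines join the 3 libraries of tTreg (circles), pTreg (squares) and Tconv (triangles) and imply no order. Hspa1a and Hspa1b are highest at number 1 and lowest at number 2 in all 3 WT populations and lowest at number 3 in all 3 CD28KO populations, while Hsph1 is highest at number 3 in WT.

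Some members, the inducible HSP70 genes among them, were higher in WT Tconv replicate 1. Set against the mean of the other 2 libraries of its group, Hspa1a was 2.94 higher and Hspa1b 2.82 higher on the log2(FPKM + 1) scale, each above 99.4% of the genes tested. That library was singled out for its high Hspa1a, so the Hspa1a value restates that choice, and Hspa1b shares most of its sequence. Dnajb9 was 1.23 higher, Dnajb1 1.03 higher (157 FPKM against 62.5 and 93.8 FPKM), Hspe1 0.95 higher (232 FPKM against 124 and 115 FPKM) and Hsp90ab1 0.76 higher. These lay above 97.9%, 96.2%, 95.1% and 90.6% of the genes tested. The J proteins Dnajc4 and Dnajc15 were 0.83 and 0.75 higher, and the inducible Hsp90aa1 was 0.29 higher. Hsph1, another inducible member, was 0.21 lower, and Dnajc13, an endosomal J protein, was 1.21 lower. The median member was 0.21 higher, beside a median of 0 over all genes. The immediate early genes Fos and Junb, which respond within minutes to many stimuli, were 1.09 and 1.97 higher in the same library. Fos stood at 292 FPKM there, against 105 and 178 FPKM in the other 2 WT Tconv libraries, and Jun at 319 FPKM, against 104 and 176 FPKM. Other immediate early genes did not stand out, with Egr1 at 67.5 FPKM against 50.4 and 71.6 FPKM. Egr2 was at 8.16 FPKM against 8.01 and 7.45 FPKM. The part of these genes in the chaperone values was not tested.

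The genes with the pattern most like that of Hspa1a over the 18 libraries, by Spearman's rho, were Hspa1b (0.996), Wfikkn1 (0.909), Fos (0.868), Fosb (0.864) and Junb (0.849). These points share libraries and replicate numbers, so the values are descriptions. Hspa1a and Hspa1b also share most of their sequence. In the list of immediate early and handling-stress genes, 11 of 18 tested genes were called by the F test of the replicate number, beside 30.3% of all genes. The lists of co-chaperones of HSP70 and HSP90 had 1 of 12 and 3 of 14 genes called, the chaperonin and prefoldin list 1 of 13, and the list of ER folding and unfolded protein response genes 4 of 20.

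**Figure D4:**
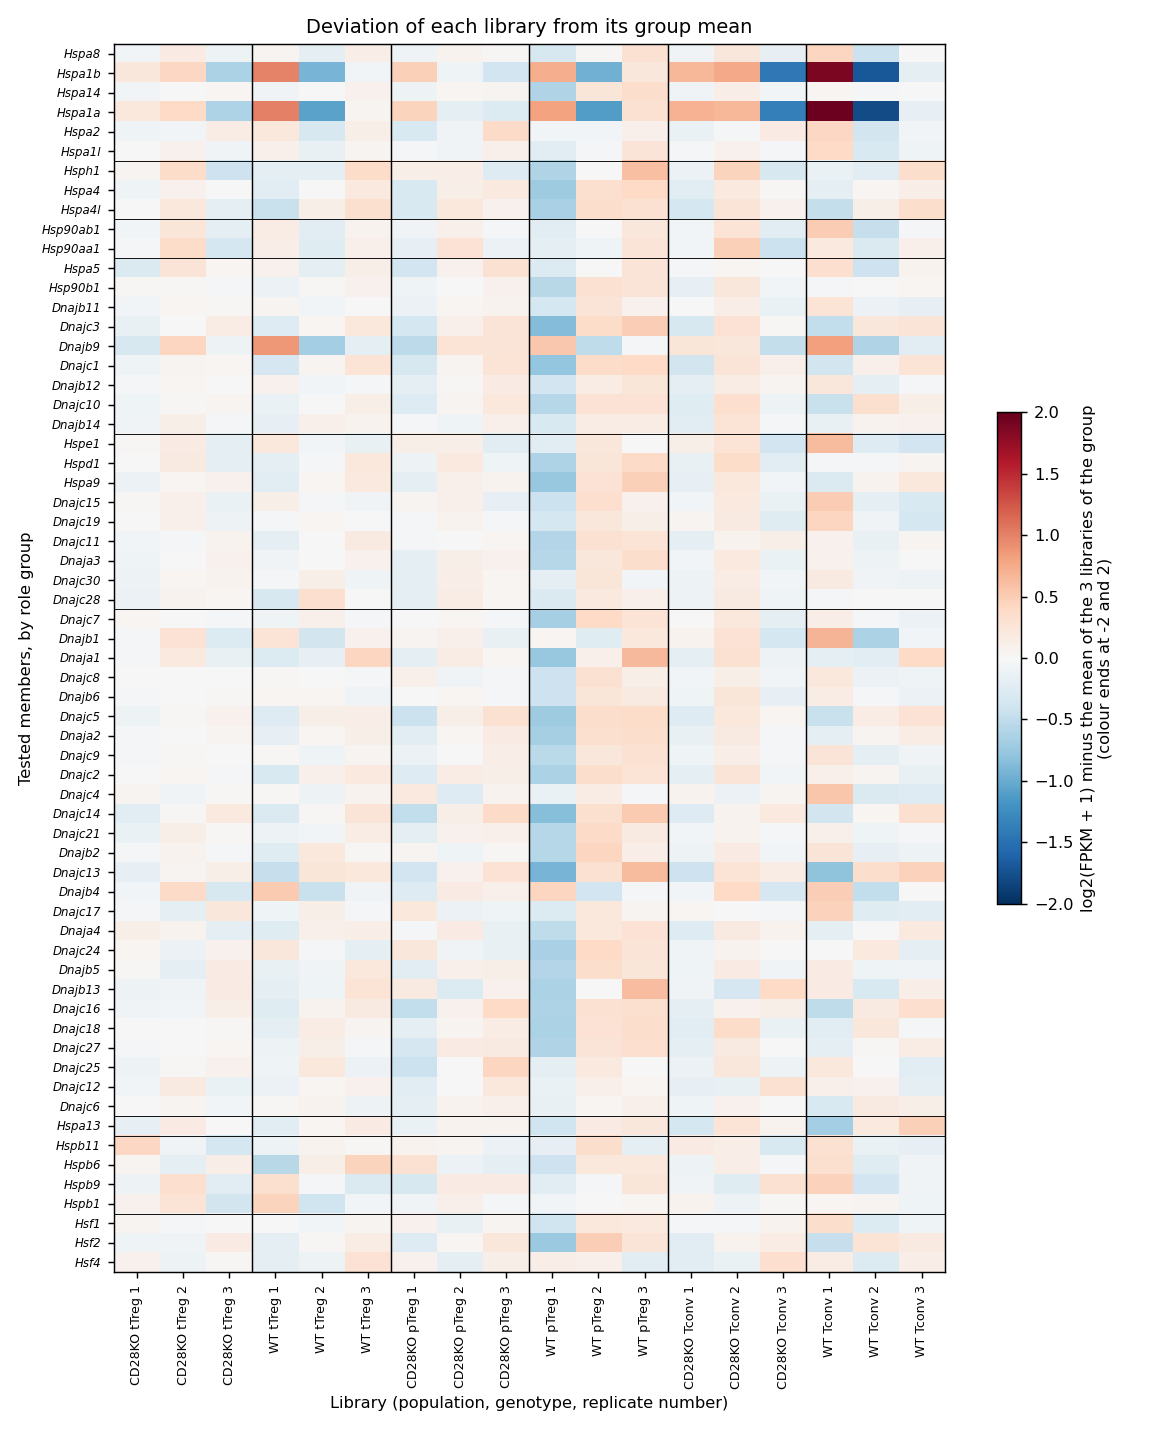
Deviation of each library from the mean of its group of 3 on the log2(FPKM + 1) scale, for the 63 tested members by role group (rows) and the 18 libraries (columns). The rows of Hspa1a and Hspa1b carry the strongest colours, their deepest red is in WT Tconv replicate 1, and the column of WT pTreg replicate 1 is blue for most members.

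The sorted populations differed in few members. In tTreg minus pTreg, 2 of 63 members were called in CD28KO, beside 4.08% of all genes, and 1 in WT, beside 4.93%. In tTreg minus Tconv, 5 members were called in CD28KO, beside 12.1% of genes, and 4 in WT, beside 12.6%. In pTreg minus Tconv, 2 members were called in CD28KO, beside 5.85% of genes, and 0 in WT, beside 4.49%, where 5 members (7.94%) had an unadjusted p under 0.05 in limma, beside 16.2% of genes. These counts include Hspb1 and Dnajc6, which passed the filter only through the group where they are high. Without WT Tconv replicate 1, tTreg minus pTreg called 2 members in CD28KO (5.4% of genes) and 1 in WT (5.54%). Without it, tTreg minus Tconv called 5 in CD28KO (13.4%) and 3 in WT (11.6%), and pTreg minus Tconv called 4 in CD28KO (8.02%) and 1 in WT (4.23%). The median member differed by 0.13 in CD28KO tTreg minus Tconv (0.09 over all genes) and by -0.12 in WT (-0.02 over all genes). The WT medians without WT Tconv replicate 1 were -0.03 for the members and -0.04 over all genes.

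Hspb1 was higher in tTreg than in pTreg and Tconv in both genotypes. In tTreg it stood at 1.30, 1.63 and 0.690 FPKM in CD28KO and at 2.88, 1.17 and 1.76 FPKM in WT. In pTreg it stood at 0.127, 0.261 and 0.149 FPKM in CD28KO and at 0.358, 0.411 and 0.447 FPKM in WT. In Tconv it stood at 0.121, 0 and 0.0889 FPKM in CD28KO and at 0.142, 0.153 and 0.0447 FPKM in WT. Every tTreg library lay above every pTreg and Tconv library. The gene reached 1 FPKM in 5 libraries, all of them tTreg, so it passed the filter only through the group where it is high, and its folds and p-values are given as a description. In CD28KO its mean FPKM was 6.75-fold higher in tTreg than in pTreg (0.88 ± 0.18 on the log2(FPKM + 1) scale, limma adjusted p = 0.00774) and 17.2-fold higher than in Tconv (1.02 ± 0.18, adjusted p = 0.000741). In WT it was 4.78-fold higher in tTreg than in pTreg (1.02 ± 0.18, limma adjusted p = 0.00251) and 17.1-fold higher than in Tconv (1.36 ± 0.18, adjusted p = 5.48e-05). The pseudocount makes log2 values of such low genes smaller than the ratios. With no filter on low values the 4 adjusted p-values in limma ran from 0.000143 to 0.0105. Of the 4 calls, the CD28KO call against pTreg was lost without CD28KO tTreg replicate 2 (adjusted p = 0.0601 in limma) and with quantile normalization (adjusted p = 0.0791). The 6 B cell markers, all in the files, summed to 37.1 to 63.3 FPKM in tTreg, 9.79 to 26.3 FPKM in pTreg and 4.39 to 15.4 FPKM in Tconv. Cd74 led that sum, while the defining B cell gene Cd79a lay between 0.571 and 2.27 FPKM over all 18 libraries. The 6 myeloid markers summed to 16.3 to 50.9 FPKM in tTreg, 24.2 to 84.8 FPKM in pTreg and 14.0 to 29.7 FPKM in Tconv. Their part in the Hspb1 values was not tested.

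The means of Hsf4 and Dnaja4 were also highest in tTreg, and both were called against Tconv and neither against pTreg with all libraries. Hsf4 was at 2.25, 1.85 and 2.11 FPKM in CD28KO tTreg and 2.06, 2.29 and 3.30 FPKM in WT tTreg, against 0.356, 0.432 and 0.964 FPKM in CD28KO Tconv and 1.38, 0.779 and 1.36 FPKM in WT Tconv. The tTreg libraries lay above the Tconv libraries of their genotype. The difference was 0.97 ± 0.18 in CD28KO (limma adjusted p = 0.00121) and 0.71 ± 0.18 in WT (adjusted p = 0.0151), and pTreg lay between, at 1.08 ± 0.245 FPKM in CD28KO and 1.36 ± 0.312 FPKM in WT (SD, n = 3 each). Against pTreg the adjusted p was 0.125 in CD28KO and 0.0949 in WT in limma. The WT call was lost without WT tTreg replicate 3 or without WT Tconv replicate 2, at adjusted p of 0.0845 to 0.0974. The highest single Tconv value in CD28KO was in replicate 3, the library with Foxp3 at 21.1 FPKM, whose part was not tested.

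Dnaja4 was at 12.9, 12.5 and 10.3 FPKM in CD28KO tTreg and 8.50, 11.1 and 11.3 FPKM in WT tTreg, against 3.81, 5.46 and 5.02 FPKM in CD28KO Tconv and 5.08, 5.98 and 6.99 FPKM in WT Tconv. It averaged 9.08 ± 1.06 FPKM in CD28KO pTreg and 8.01 ± 2.47 FPKM in WT pTreg. The tTreg libraries lay above the pTreg libraries in CD28KO and overlapped them in WT. For tTreg minus pTreg the limma adjusted p was 0.540 in CD28KO and 0.489 in WT. Dnaja4 was thus 2.49-fold higher in tTreg than in Tconv in CD28KO (1.16 ± 0.21, limma adjusted p = 0.000854) and 1.71-fold higher in WT (0.69 ± 0.21, adjusted p = 0.0420). In CD28KO it was also 1.91-fold higher in pTreg than in Tconv (0.81 ± 0.21, adjusted p = 0.0301). The first of these held when any 1 library was left out. The WT call was lost without WT tTreg replicate 2 or 3, or without WT Tconv replicate 1 or 2 (adjusted p of 0.0955 to 0.161), and the pTreg call without any 1 of the 6 libraries compared (adjusted p of 0.0523 to 0.172). Its overlapping gene Wdr61 lay between 10.6 and 20.7 FPKM over the 18 libraries.

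Dnajb14, a J protein of the ER membrane, was at 3.21, 3.80 and 3.33 FPKM in CD28KO tTreg and 2.85, 3.59 and 3.49 FPKM in WT tTreg, against 1.51, 2.54 and 1.84 FPKM in CD28KO Tconv and 1.68, 2.10 and 2.14 FPKM in WT Tconv. The groups did not overlap, and tTreg was higher by 0.60 ± 0.16 in CD28KO (limma adjusted p = 0.0210) and 0.54 ± 0.16 in WT (adjusted p = 0.0409). The CD28KO call was lost without CD28KO tTreg replicate 2 or 3, or CD28KO Tconv replicate 1 or 3 (adjusted p of 0.0527 to 0.137). The WT call was lost without any 1 of WT tTreg replicates 2 and 3 and WT Tconv replicates 1, 2 and 3 (adjusted p of 0.0687 to 0.149). Hspa2, an HSP70 best known from testis, was called in WT tTreg minus Tconv once WT Tconv replicate 1 was left out (0.70 ± 0.20, adjusted p = 0.0355), and with all libraries it was not (0.49 ± 0.21, adjusted p = 0.166).

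The mean of Dnajc15 was highest in CD28KO pTreg, and that of Dnajc6 in Tconv. Dnajc15, a J protein of the mitochondrial inner membrane, was at 24.9, 26.2 and 22.1 FPKM in CD28KO tTreg, 49.4, 51.4 and 42.5 FPKM in CD28KO pTreg and 25.9, 31.1 and 24.6 FPKM in CD28KO Tconv. Every CD28KO pTreg library lay above the others of that genotype. The CD28KO difference of tTreg minus pTreg was -0.94 ± 0.21 (limma adjusted p = 0.0165) and that of pTreg minus Tconv was 0.79 ± 0.21 (adjusted p = 0.0385). In WT it was at 27.4, 24.6 and 23.9 FPKM in tTreg, 25.6, 44.0 and 37.1 FPKM in pTreg and 49.1, 29.8 and 27.8 FPKM in Tconv, and pTreg overlapped both. The first call was lost without CD28KO tTreg replicate 1 or 3, or CD28KO pTreg replicate 1 or 2 (adjusted p of 0.0600 to 0.0817), and the second without any 1 of the 6 libraries compared (adjusted p of 0.0592 to 0.145). Without WT Tconv replicate 1, Dnajc4, another J protein, was also called higher in CD28KO pTreg than in Tconv (0.51 ± 0.14, adjusted p = 0.0354).

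Dnajc6, which encodes the uncoating factor auxilin, was at 0.436, 0.491 and 0.378 FPKM in CD28KO tTreg, against 0.834, 1.07 and 0.957 FPKM in CD28KO Tconv. The difference was -0.44 ± 0.14 (limma adjusted p = 0.0465), a call lost without any 1 of the 6 libraries compared (adjusted p of 0.0762 to 0.164). The gene reached 1 FPKM in 3 libraries, all of them Tconv, so it too passed the filter only through the group where it is high, and its tests against Tconv are given as a description. With no filter the adjusted p was 0.0340 in limma. Without WT Tconv replicate 1 it was also called lower in pTreg than in Tconv, with differences of -0.41 ± 0.11 in CD28KO (adjusted p = 0.0379 in limma) and -0.60 ± 0.13 in WT (adjusted p = 0.0131). In WT pTreg it was at 0.256, 0.429 and 0.495 FPKM, against 0.523, 1.14 and 1.06 FPKM in WT Tconv, where replicate 1 was the lowest.

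Other members among the largest differences between populations did not pass the test. Hspa1a and Hspa1b differed by 1.50 ± 0.80 and 1.55 ± 0.77 in CD28KO pTreg minus Tconv with no overlap (adjusted p = 0.374 and 0.333 in limma), and by 1.23 ± 0.80 and 1.28 ± 0.77 in CD28KO tTreg minus Tconv with overlap. Hspa13, an HSP70-like protein of the ER known as STCH, differed by 0.73 ± 0.26 in WT tTreg minus Tconv with no overlap (adjusted p = 0.0827 in limma). Dnajb2 and Hspb11 differed by -0.56 ± 0.21 and -0.53 ± 0.22 in WT pTreg minus Tconv, and Dnajc17, a splicing-related J protein, by -0.40 ± 0.20 in CD28KO tTreg minus pTreg. Dnajc5, the cysteine string protein of vesicles, differed by -0.22 ± 0.28 in CD28KO and -0.52 ± 0.28 in WT for pTreg minus Tconv. Hspb9 differed by -0.36 ± 0.24 in WT tTreg minus pTreg and by -0.55 ± 0.24 in WT tTreg minus Tconv, where Dnajb1 differed by -0.51 ± 0.28. Dnajc12 differed by -0.27 ± 0.16 in CD28KO pTreg minus Tconv, and Dnajb13 by 0.33 ± 0.27 in WT pTreg minus Tconv. These differences are given with all libraries. WT Tconv replicate 1 held the highest WT Tconv value of Dnajb1, Dnajb2, Dnajb13, Hspb9 and Hspb11 and the lowest of Hspa13 and Dnajc5. The lowest WT pTreg value of Dnajb2, Dnajb13, Dnajc5 and Hspb9 was in WT pTreg replicate 1.

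**Figure D5:**
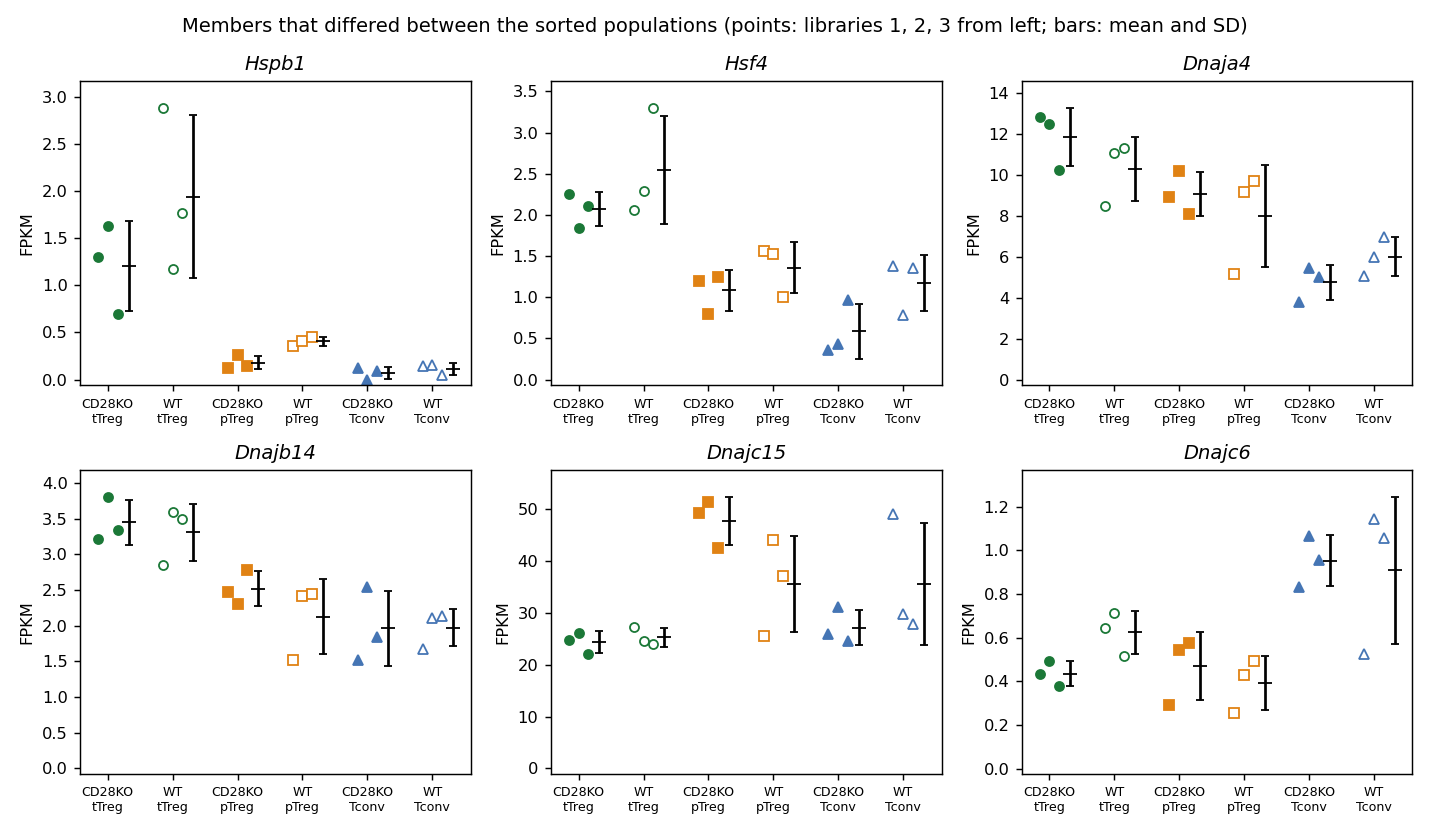
FPKM of 6 members in the 18 libraries, with CD28KO (filled) left of WT (open) in tTreg, pTreg and Tconv; black bars give the mean and SD of 3 libraries. Hspb1 is at 0.690 FPKM or more in tTreg and at 0.447 FPKM or less elsewhere, the mean of Dnajc15 is highest in CD28KO pTreg, and that of Dnajc6 in Tconv.

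A block on the replicate number bears on these calls, since deviations of same-numbered libraries correlated above 0.1 in 6 of the 9 comparisons. What a number marks is not given, and this block gives a number the same effect in both genotypes. With the block, CD28KO tTreg minus Tconv called 7 members (16.6% of genes), against 5 without it, adding Hspa4l (0.69 ± 0.18, limma adjusted p = 0.0122) and Hspb11 (-0.57 ± 0.18, adjusted p = 0.0388). WT tTreg minus Tconv called 8 (17.5% of genes), against 4, adding Hspa13 and Hspa4l as higher and Dnajb5 and Dnajc28 as lower. WT tTreg minus pTreg called 4 (9.98% of genes), against 1, adding Hspa4l (0.75 ± 0.18, limma adjusted p = 0.0135), Hsf4 (0.58 ± 0.17, adjusted p = 0.0372) and Dnajb14 (0.48 ± 0.13, adjusted p = 0.0269). Hspa4l, a member of the HSP110 class, was at 7.40, 8.75 and 6.38 FPKM in CD28KO tTreg and 5.11, 8.04 and 9.37 FPKM in WT tTreg, against 3.61, 5.56 and 5.05 FPKM in CD28KO pTreg and 2.17, 5.30 and 5.09 FPKM in WT pTreg. Each tTreg library was above the pTreg library of its own genotype and number. CD28KO pTreg minus Tconv called 4 (9.38% of genes), against 2, adding Dnajb13 (0.69 ± 0.21, limma adjusted p = 0.0475) and Dnajc6 (-0.41 ± 0.12, adjusted p = 0.0420). With a block inside each genotype, added after the data were seen, Hspa1a was called higher in both CD28KO Treg subsets than in CD28KO Tconv, by 1.23 ± 0.36 in tTreg (limma adjusted p = 0.0274) and 1.50 ± 0.36 in pTreg (adjusted p = 0.0158). CD28KO Tconv replicate 3, at 2.25 FPKM the lowest of the 18 libraries for Hspa1a, enters both, and its part was not tested.

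Scaling changed the split of the calls between higher and lower, and the share of all genes called was larger with it in each of these 6 comparisons. In CD28KO tTreg minus Tconv, quantile normalization called 5 members higher and 5 lower, beside 23% of genes, where the values as deposited gave 4 higher and 1 lower. In WT it called 5 higher and 10 lower, beside 25.3% of genes, where the deposited values gave 4 higher and 0 lower. In tTreg minus pTreg it called 0 higher and 1 lower in CD28KO (1 and 1 as deposited), beside 9.29% of genes, and 1 higher and 2 lower in WT (1 and 0 as deposited), beside 8.75%. In pTreg minus Tconv it called 2 higher and 2 lower in CD28KO (2 and 0 as deposited) and 1 higher and 1 lower in WT (0 and 0 as deposited), beside 10.3% of genes in each. The members it added as lower in tTreg than in Tconv of both genotypes were Dnajb5, a partner of HSP70 in the cytosol (-0.55 ± 0.12 in CD28KO and -0.73 ± 0.12 in WT), Dnajc28 and Dnajc21. Dnajb5 was at 5.44, 4.55 and 6.14 FPKM in CD28KO tTreg and 4.83, 5.20 and 6.51 FPKM in WT tTreg, against 6.68, 8.09 and 6.75 FPKM in CD28KO Tconv and 10.3, 8.45 and 8.56 FPKM in WT Tconv. Every tTreg library was below every Tconv library of its genotype.

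Genes that work with these chaperones gave no calls between genotypes. None of the 12 tested HSP70 co-chaperones and exchange factors, 14 HSP90 co-chaperones, 13 chaperonin and prefoldin subunits, 20 ER folding and unfolded protein response genes and 18 immediate early and handling-stress genes was called for CD28KO against WT in any population. Their median differences in Tconv were -0.25, -0.24, -0.24, -0.27 and -0.41, beside -0.16 over all genes. Leaving out WT Tconv replicate 1 gave -0.18, -0.15, -0.21, -0.21 and -0.06, beside -0.19 over all genes. Between populations no co-chaperone, chaperonin or prefoldin gene was called in the 6 comparisons with all libraries, where 4.08% to 12.6% of all genes were. Once WT Tconv replicate 1 was left out, Bag3, a nucleotide exchange factor, was called higher in CD28KO tTreg than in CD28KO Tconv, and Pfdn5, a prefoldin subunit, in CD28KO pTreg than in CD28KO Tconv. In the ER list, Xbp1, the factor spliced during the unfolded protein response, and Atf6, a sensor of that response, were higher in tTreg than in Tconv in both genotypes, and Trib3, a target of ER stress, was lower. The WT call of Atf6 was lost without WT Tconv replicate 1. Xbp1 was at 26.9, 28.2 and 23.7 FPKM in CD28KO tTreg and 30.2, 30.7 and 32.5 FPKM in WT tTreg, against 14.2, 17.2 and 16.1 FPKM in CD28KO Tconv and 23.9, 19.6 and 16.8 FPKM in WT Tconv. Among the immediate early and handling-stress genes, Egr2, a zinc finger factor, was higher in tTreg than in Tconv and than in pTreg in both genotypes. Nfkbia was also called higher in tTreg than in Tconv in both genotypes, and in CD28KO pTreg than in CD28KO Tconv. Compared with CD28KO Tconv, Hmox1 was called higher in CD28KO tTreg and Zfp36 in CD28KO pTreg.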

How the data were processed

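RNA-seq of 18 libraries was deposited as 1 table of FPKM per library. Per the submitters' processing notes, the authors used Trimmomatic 1, TopHat2 2.0.11 and Cufflinks on GRCm38, and per the labels' protocols reads were 50 nt. No header names the unit: FPKM was taken from the tool named and from the values. Annotation, strand handling and depth are not given in the sources used here. Values were tested as log2(FPKM + 1), without further scaling, with limma 3.58.1 in R 4.3.3 (group means, all 18 libraries, variance trend, two-sided, Benjamini-Hochberg over 12265 genes, called at adjusted p under 0.05) in 9 pairwise comparisons and 3 differences of CD28 effects. This log scale understates changes of low genes. The fit was tested on simulated data. Named genes are the main chaperones of each compartment, all called members, the largest differences each way in each comparison, the 5 highest members, and the 5 genes most like Hspa1a. Members and lists were chosen with earlier results of these data known. Replicate numbers were taken to pair libraries where the deviations of all 3 same-numbered pairs correlated above 0.1, which held for 6 of 9 comparisons (lowest correlation 0.103 to 0.256).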

Additional observations from a re-analysis of the deposited data

How the results depend on the processing

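No member was called in the CD28 comparisons, or in the differences between them, under any alternative run. Between populations, counts of members called moved, and the counts of all genes called, in brackets, moved as well. CD28KO tTreg minus pTreg (2, genes 500) gave 1 with quantile normalization (1139), 4 with only the compared groups (1212), 6 without the 3 libraries that stand apart (1853), and 1 to 2 leaving out single libraries (322 to 662). WT tTreg minus pTreg (1, genes 605) gave 3 with quantile normalization (1073), 4 with the replicate block (1224), 3 with the block within genotype (1245), 3 without the 3 libraries (913), and 1 to 2 leaving out single libraries (348 to 680). CD28KO tTreg minus Tconv (5, genes 1484) gave 10 with quantile normalization (2815), 10 with the block within genotype (2019), and 3 to 5 leaving out single libraries (1125 to 1644). WT tTreg minus Tconv (4, genes 1545) gave 2 with no filter (2010), 15 with quantile normalization (3098), 8 with the replicate block (2144), 9 with the block within genotype (2122), 7 without the 3 libraries (2355), 1 with only the compared groups (1276), and 1 to 4 leaving out single libraries (1140 to 1426). CD28KO pTreg minus Tconv (2, genes 718) gave 0 with no filter (662), 4 with quantile normalization (1259), 4 with the replicate block (1150), 4 with the block within genotype (1099), 7 without the 3 libraries (2082), and 0 to 4 leaving out single libraries (391 to 984). WT pTreg minus Tconv (0, genes 551) gave 1 with no filter (570), 2 with quantile normalization (1259), 1 with the replicate block (1129), 1 without the 3 libraries (1012), and 0 to 1 leaving out single libraries (365 to 739). The cause was not tested.

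The replicate block changed no other call. CD28KO minus WT in tTreg and in pTreg, and WT pTreg minus Tconv, did not meet the pairing rule (lowest correlation 0.0408, 0.0627 and 0.0291). In each of them only number 2 fell short. Numbers 1 and 3 correlated at 0.128 and 0.175 in tTreg, at 0.301 and 0.345 in pTreg, and at 0.508 and 0.438 in WT pTreg minus Tconv.

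For CD28KO minus WT in tTreg, Hspa1a ranged from -0.37 to 0.68 and Hspa1b from -0.26 to 0.70 leaving out single libraries. They were -0.03 and -0.00240 without CD28KO tTreg replicate 2, and -0.37 and -0.26 without WT tTreg replicate 2. In pTreg, Hspa1a ranged from -0.42 to 0.54 and Hspa1b from -0.32 to 0.53, and quantile normalization gave -0.046 and -0.011. Without CD28KO pTreg replicate 1 they were -0.09 and -0.08, and without WT pTreg replicate 2 -0.42 and -0.32. In Tconv, Hspa1a ranged from -2.32 to -0.44 and Hspa1b from -2.25 to -0.46. With the replicate block their limma adjusted p was 0.327 and 0.324, and with the block within genotype it was 0.0863 for each. The block within genotype also takes spread between numbers out of this comparison of genotypes. Without the 3 libraries that stand apart, Hspa1a and Hspa1b turned to 0.24 and 0.25. Those libraries hold the highest WT Tconv value and the lowest CD28KO Tconv value of both genes, so the rise follows from leaving them out. Without read counts, what depth limits cannot be given.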
